A study of Mus musculus with 6 samples.

Results

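The nuclear-encoded subunits of the mitochondrial respiratory chain were followed in mouse intestinal organoids that lack Apc, with and without a labelled overexpression of IGF2BP3. Members were picked by a rule on gene symbols, and the rule was chosen with earlier results of these data known. It took the Nduf subunit series, Sdha to Sdhd, the Uqcr series and Cyc1, the Cox4 to Cox8 series, and the Atp5 series. Symbols marked as pseudogenes were left out. This gave 90 of the 52249 rows of the count table, of which 38 belong to complex I, 4 to complex II, 9 to complex III, 21 to complex IV and 18 to complex V. Ndufa4 and Ndufa4l2 carry complex I names but were placed with complex IV, where the Ndufa4 protein is now assigned. Low-count filtering left 79 members for testing, and the 11 others are described by their counts.

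The respiratory chain sits in the inner mitochondrial membrane. Complex I takes electrons from NADH and complex II takes them from succinate, both pass them to ubiquinone, complex III hands them to cytochrome c, and complex IV gives them to oxygen. Complexes I, III and IV pump protons as they do so, and complex V, the ATP synthase, uses the proton gradient to make ATP. Some core subunits are encoded in mitochondrial DNA, and the remainder come from nuclear genes scattered over the chromosomes, here over 19 of them, whose proteins are imported and assembled with dedicated assembly factors. In the intestine, differentiated cells and stem cells of the epithelium differ in how much they rely on this chain.

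All 6 libraries came from organoids with an Apc knockout; Apc restrains WNT signalling, and its loss starts many intestinal tumours. Control denotes the 3 libraries with the Apc knockout only, and OE-labelled denotes the 3 libraries labelled as also overexpressing IGF2BP3, an RNA-binding protein. How Apc was removed, the overexpression construct, the number of clones, and the age of the source animals are not given in the sources used here, nor whether libraries of a group came from separate cultures, so p-values measure the spread between these libraries, which may be technical. Libraries were made with a 3′ kit, which reads the end of each polyadenylated transcript, so a count does not grow with transcript length, and levels are given as CPM, the count scaled to a library of fixed TMM-adjusted size. The libraries held 2180087 to 2519886 counts, and 3 counts, used as a floor, corresponded to 1.18 to 1.41 CPM.

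The count of Igf2bp3 was 1, 0 and 0 in the control and 1, 0 and 0 in the OE-labelled libraries, at or under the floor in both groups, so the counts gave no check of the overexpression label. Library names carry a series number that differs between the groups and not within them, and an effect of the series cannot be told apart from an effect of the group in any result here. Epithelial markers were present. The summed level of a list of 10 was 3959 to 4186 CPM in control and 5348 to 6038 CPM in OE-labelled libraries. Of 9 tested, 4 (Krt8, Krt18, Krt19 and Vil1) were called higher by edgeR, against 16.5% of all genes. Epcam, Cdh1, Cdx2, Lgr5 and Olfm4 were not called, and Cdx1 was at 0. The part of these markers in the subunit results was not tested. Summed levels stayed at or below 8.88 CPM in each library for each of the other lists: fibroblast (0.922 to 2.81 CPM in control and 0.846 to 1.97 CPM in OE-labelled libraries, with Col1a2, Col3a1, Dcn, Lum and Thy1 at 0), immune (2.77 to 7.04 and 3.15 to 8.88 CPM, with Cd3e, Lyz2 and Tyrobp at 0), endothelial (0 to 0.922 and 0 to 0.810 CPM, with Cdh5 at 0) and muscle (0.921 to 4.15 and 0.393 to 1.22 CPM, with Actg2 at 0). Mitochondrial ribosomal RNAs took 8.93 to 9.41% of counts in control libraries and 3.89 to 4.36% in the OE-labelled ones, and without mitochondrial genes 41 members were called higher (background 14.1%), all 41 of them among the 44 called with those genes.

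Members of each of the 5 complexes were called higher in the OE-labelled libraries, and these increases were below 2-fold. For complex II this rested on Sdhb alone, whose call held in 10 of 20 alternatives. Of the 79 members tested, 44 (55.7%) were called higher and 1, the testis-type isoform Cox6b2, was called lower at an adjusted p below 0.05 by edgeR's quasi-likelihood test. Over all 10687 genes tested, 29.2% were called, 16.5% higher and 12.7% lower. The median log2 fold change of the members was 0.42, a fold of 1.34, against 0.04 for all genes. The called increases ran from 0.33 to 0.95 on the log2 scale, or 1.26-fold to 1.93-fold. For 47 members (59.5%) every OE-labelled library lay above every control library, against 25.3% of all genes; for 2 (Cox6b2 and Cox7a2l) every one lay below, against 20.5% of all genes; and for 30 the groups overlapped. The log2 fold change was above 0 for 69 of the 79, including 25 of the 34 members not called, against 53.0% of all genes. In bulk libraries, a change in the number of cells of a type and a change in RNA per cell cannot be told apart.

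**Figure D1:**
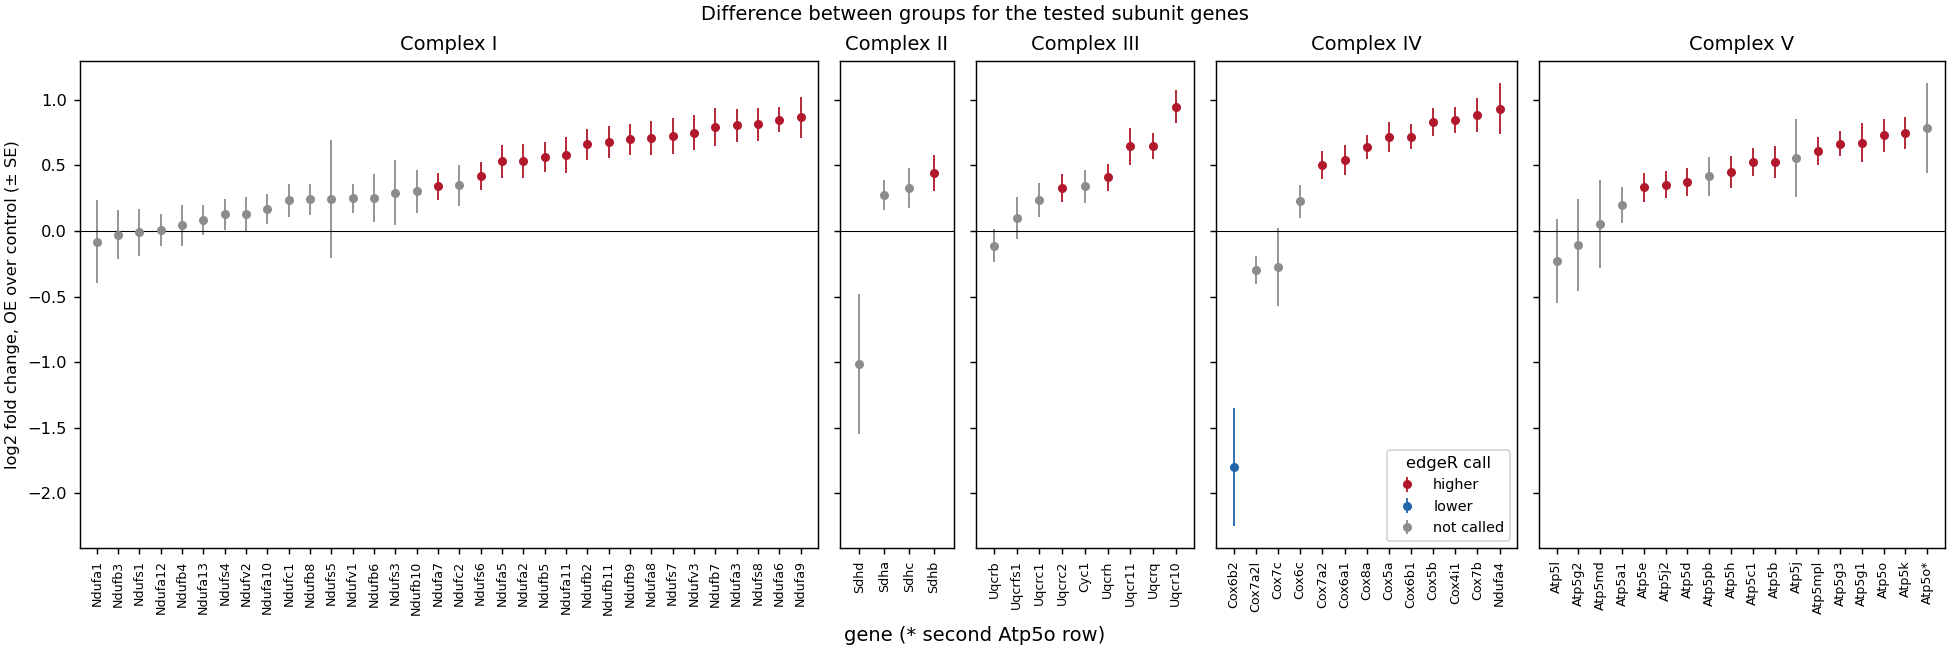
Log2 fold change (OE-labelled against control, edgeR) of 78 tested members by complex, with bars for the standard error and colour for the call at an adjusted p below 0.05. Most points lie above 0 in every complex, the called increases lie between 0.33 and 0.95, and Cox6b2 is the 1 member called lower.

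The summed level of all 90 members was 12267, 12119 and 11902 CPM in the control libraries. It was 15862, 17528 and 16486 CPM in the OE-labelled libraries, a 1.37-fold higher mean. All OE-labelled sums lay above all control sums, and the members took 1.16 to 1.19% of all counts in control against 1.58 to 1.77% in OE-labelled libraries. The sums of single complexes were higher by similar factors: 1.38-fold for complex I, 1.24-fold for complex II, 1.35-fold for complex III, 1.39-fold for complex IV and 1.37-fold for complex V. Relative to their mean, the OE-labelled libraries were closest to each other for complex I (5364, 5575 and 5114 CPM, against 3950, 3849 and 3804 CPM in control). They were farthest apart for complex V, where replicate 1 stood at 4005 CPM and replicates 2 and 3 at 4867 and 4680 CPM, against 3333, 3292 and 3259 CPM in control.

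**Figure D2:**
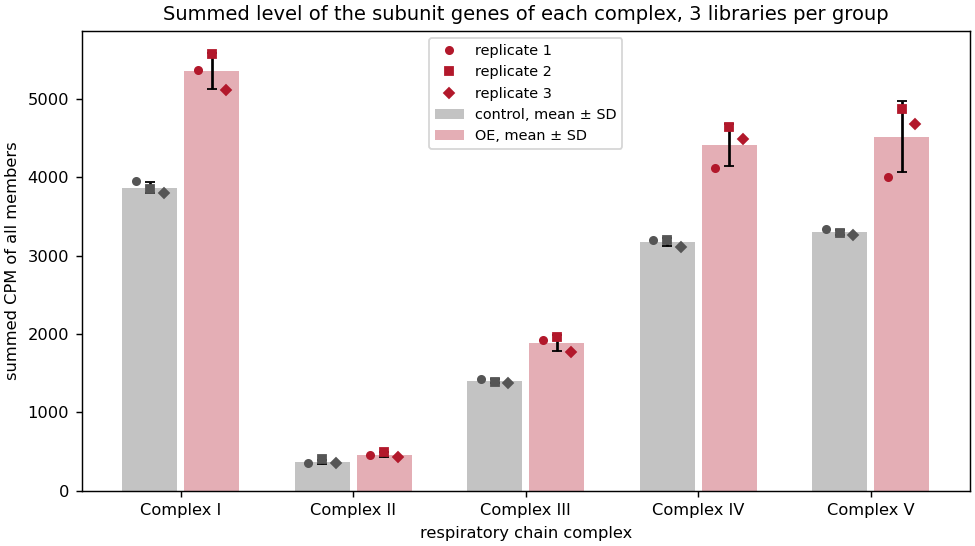
Summed TMM-scaled CPM of the members of each complex in each library (points), with the group means. For every complex the 3 OE-labelled sums lie above the 3 control sums, from 1.24-fold for complex II to 1.39-fold for complex IV, and in complex V OE-labelled replicate 1 lies below the other OE-labelled libraries.

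The members had short exonic lengths, taken as the union of all annotated exons of a gene and not as the length of a single transcript. Their median exonic length was 1675 bases, against 4520 bases over all genes tested, and their median GC content was 51.3% against 50.2%. A fit with an offset per library for exonic length called 28 members higher (35.4%, against 12.4% of all genes) and 3 lower (Uqcrb, Cox6b2 and Cox7a2l, against 11.7% of all genes), with a median log2 fold change of 0.20, against 0.01 for all genes. All 28 were among the 44. By complex, 13 members of complex I, 0 of complex II, 2 of complex III, 7 of complex IV and 6 of complex V were called higher with that offset, and the median log2 fold changes were 0.10, 0.18, 0.13, 0.34 and 0.31. With an offset for GC content, 37 members were called higher (background 11.7%), 35 of them among the 44, with a median of 0.35. Among the 79 members themselves the log2 fold change had little relation to exonic length (Pearson r = -0.05, Spearman rho = -0.14) or to GC content (r = 0.15, rho = 0.25); these describe members that share the same 6 libraries and are not independent.

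**Figure D3:**
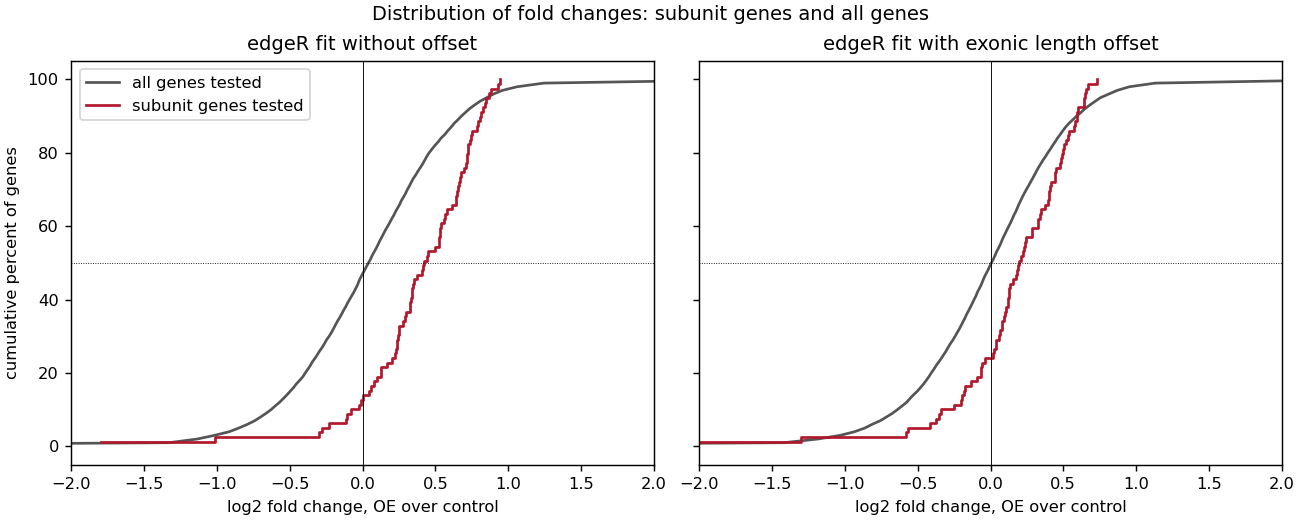
Cumulative share (%) of the tested members and of all 10687 tested genes against log2 fold change, without and with the offset for exonic length. The members' curve lies to the right of that of all genes, with medians of 0.42 against 0.04, and comes nearer to it with the offset, with medians of 0.20 against 0.01.

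Promoters of respiratory chain genes are known for sites of the nuclear factors NRF1, GABPA (an ETS factor also called NRF2) and YY1, so each member's start was searched for their letters. Windows of 250 bases before to 50 bases after the outermost start in RefSeq (GRCm38.p6) were found for 68 of the 90 members, and both strands were searched for GCGC and TGCGC separated by any 1 base (NRF1), CCGGAAG (ETS) and AANATGGCG (YY1). The NRF1 letters were in 16 member windows (23.5%), against 11.6% of the 8416 windows of genes tested here and 4.82% of all 27025 windows. The ETS letters were in 16 (23.5%, against 20.4% and 9.14%) and the YY1 letters in 8 (11.8%, against 5.99% and 2.5%). At least one of the motifs was in 23 of the 37 windows of members called higher (62.2%) and in 12 of the 27 of members tested and not called (44.4%), against 33.4% of the windows of genes tested. A match is a description of the letters and not evidence of binding.

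To show where these letters lie, a stretch is printed for 1 member of each complex that was called higher and had an NRF1 or ETS match upstream of its start and outside annotated exons; no complex II member met that rule. Each stretch is from RefSeq GRCm38.p6, is written 5′ to 3′ on the strand of the gene, and has the matched letters in capitals. Ndufa11 is an accessory subunit of complex I (chr17:56717686-56717761, plus strand), Uqcr11 a small subunit of complex III (chr10:80406831-80406947, minus strand), Cox6a1 a subunit of complex IV (chr5:115349006-115349129, minus strand) and Atp5h a stalk subunit of complex V (chr11:115419991-115420120, minus strand).
Ndufa11: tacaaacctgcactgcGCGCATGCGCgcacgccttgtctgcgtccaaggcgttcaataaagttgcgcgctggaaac
Uqcr11: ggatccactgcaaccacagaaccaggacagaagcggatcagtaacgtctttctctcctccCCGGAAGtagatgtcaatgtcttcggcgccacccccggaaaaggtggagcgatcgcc
Cox6a1: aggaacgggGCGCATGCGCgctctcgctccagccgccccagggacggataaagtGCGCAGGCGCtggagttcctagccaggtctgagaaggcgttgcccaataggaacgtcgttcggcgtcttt
Atp5h: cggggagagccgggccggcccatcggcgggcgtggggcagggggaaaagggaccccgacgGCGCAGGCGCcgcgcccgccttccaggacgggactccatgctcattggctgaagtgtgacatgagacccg
The capitals mark NRF1 letters in Ndufa11, Cox6a1 (2 matches) and Atp5h, and ETS letters in Uqcr11. The printed match nearest the start begins 60 bases before it in Ndufa11, 66 in Uqcr11, 117 in Cox6a1 and 141 in Atp5h. The windows of Cox6a1 and Atp5h also held 1 ETS match each, outside the printed stretch. All 4 genes were called higher in the main test, with log2 fold changes of 0.58, 0.64, 0.54 and 0.45. None of these calls held with the length offset (0.29, 0.35, 0.24 and 0.18, edgeR adjusted p of 0.101 to 0.282). With the GC offset only Atp5h stayed called (0.44, edgeR adjusted p = 0.0176).

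Complex I, the largest complex, had 18 of 35 tested members called higher and 0 lower, with a median log2 fold change of 0.35. At an unadjusted p below 0.05 edgeR also found 0 lower, and DESeq2 called 17 higher and 0 lower (backgrounds 9.7% and 8.84%). The core subunits carry flavin and iron-sulfur clusters from the NADH site towards ubiquinone. Ndufs8, an iron-sulfur subunit, stood at 49.8, 51.6 and 53.0 CPM in control and at 97.6, 81.8 and 91.7 CPM in OE-labelled libraries. The groups did not overlap, and its log2 fold change was 0.81 ± 0.13 (SE) with an adjusted p of 0.000692 in edgeR.

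Ndufv1 and Ndufs1 were among the core members that were not called. For Ndufv1, the subunit that binds NADH and flavin, the groups did not overlap (118, 112 and 118 CPM in control and 149, 129 and 135 CPM in OE-labelled libraries), and the log2 fold change was 0.25 with an edgeR adjusted p of 0.105. Ndufs1 had a log2 fold change of -0.01.

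The accessory subunits surround the core and are needed for its assembly and stability. Of the Ndufa, Ndufs and Ndufv accessory members, 10 of 16 tested were called higher, with a median of 0.48. Ndufa6, which holds a mitochondrial acyl carrier protein in the matrix arm, had the highest mean level of the complex I members as 3′ counts, at 435, 382 and 399 CPM in control. It was 735, 742 and 709 CPM in the OE-labelled libraries. The OE-labelled values were close to each other and far above control, and the log2 fold change was 0.85 ± 0.10 (SE) with an adjusted p of 0.000129 in edgeR. Ndufa3, a small membrane subunit, stood at 105, 128 and 111 CPM in control and 199, 223 and 178 CPM in OE-labelled libraries. The groups did not overlap, and its log2 fold change was 0.80 ± 0.12 (SE) with an adjusted p of 0.000692 in edgeR; its locus overlaps Tfpt on the opposite strand, and the strand setting of the counting is not given in the sources used here. The Ndufb and Ndufc accessory members belong mostly to the membrane arm, and 5 of 12 tested were called higher: Ndufb2, Ndufb5, Ndufb7, Ndufb9 and Ndufb11. Their median was 0.32. Ndufb2, Ndufb8 and Ndufb9 hold fractional counts in the deposited table and overlap another gene on the same strand.

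Complex II, succinate dehydrogenase, is encoded wholly in the nucleus and links the chain to the tricarboxylic acid cycle. Of its 4 members only Sdhb passed the test, and the median log2 fold change was 0.30. The iron-sulfur subunit Sdhb stood at 107, 101 and 90.3 CPM in control and at 151, 143 and 112 CPM in OE-labelled libraries. OE-labelled and control ranges were separate, with the third OE-labelled library nearest to control, and its log2 fold change was 0.44 ± 0.13 (SE) with an adjusted p of 0.0267 in edgeR. This call held in 10 of 20 alternatives and was lost on leaving out any 1 library other than OE-labelled replicate 3 (edgeR adjusted p of 0.0618 to 0.134); DESeq2 called 0 members of complex II.

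Sdha, the flavoprotein that oxidizes succinate, stood at 147, 167 and 145 CPM in control and at 199, 191 and 166 CPM in OE-labelled libraries. The groups overlapped slightly, since control replicate 2 exceeded OE-labelled replicate 3, and edgeR gave a log2 fold change of 0.28 with an adjusted p of 0.0895; without OE-labelled replicate 3 these were 0.35 and 0.0225. Sdhc, a membrane anchor, stood at 91.7, 117 and 108 CPM in control and at 102, 150 and 145 CPM in OE-labelled libraries. OE-labelled replicate 1 fell within the control range, and edgeR gave 0.33 with an adjusted p of 0.129, and 0.43 with an adjusted p of 0.00845 without that library. Sdhd, the other anchor, was counted 19, 35 and 19 times in control and 1, 17 and 23 times in OE-labelled libraries. OE-labelled replicate 1 was under the floor while replicate 3 lay within the control range, and edgeR gave -1.01 ± 0.54 (SE) with an adjusted p of 0.174, or -1.64 with an adjusted p of 0.0480 without OE-labelled replicate 3.

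Complex III had 5 of 9 members called higher and 0 lower, with a median log2 fold change of 0.34. EdgeR found 0 lower at an unadjusted p below 0.05 too, and DESeq2 called 4 higher and 0 lower; 3 were called higher by edgeR without any 1 control library or OE-labelled replicate 2, and 2 with the length offset. The calls were mostly of the small subunits, of which 4 of 5 rose. Uqcr10, a small subunit beside the Rieske protein, stood at 100, 112 and 101 CPM in control and at 222, 210 and 172 CPM in OE-labelled libraries. The groups were far apart, and its log2 fold change of 0.95 ± 0.12 (SE) with an adjusted p of 0.000303 in edgeR was the largest of the 44. Uqcrq, which sits by cytochrome b, stood at 267, 258 and 256 CPM in control and at 438, 376 and 408 CPM in OE-labelled libraries. Every OE-labelled library exceeded every control library, and the log2 fold change was 0.65 ± 0.10 (SE) with an adjusted p of 0.000722 in edgeR.

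Uqcrh, the hinge protein at the docking site of cytochrome c, had the highest mean level among complex III members, at 400, 394 and 379 CPM in control and 562, 530 and 465 CPM in OE-labelled libraries. The lowest OE-labelled value was above the highest control value, and the log2 fold change was 0.41 ± 0.10 (SE) with an adjusted p of 0.0104 in edgeR. That call was lost with the length offset (0.13, adjusted p = 0.410) and narrowly without control replicate 1, 2 or 3 or OE-labelled replicate 2 (edgeR adjusted p of 0.0502 to 0.0685). Uqcr11, another small subunit, stood at 83.9, 65.7 and 70.0 CPM in control and at 126, 122 and 96.0 CPM in OE-labelled libraries. Control and OE-labelled values were apart, and the log2 fold change was 0.64 ± 0.14 (SE) with an adjusted p of 0.00536 in edgeR, or 0.35 with an adjusted p of 0.101 under the length offset and 0.35 with an adjusted p of 0.0751 with the GC offset.

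Among the larger subunits of complex III, Uqcrc2 rose (0.33, edgeR adjusted p = 0.0395) and Uqcrc1 did not pass the test (0.24, adjusted p = 0.196). The call of Uqcrc2 held in 10 of 20 alternatives, with 0.13 and an edgeR adjusted p of 0.421 under the length offset and an adjusted p of 0.138 by DESeq2. Neither subunit that carries electrons through a bound metal centre passed it. Cytochrome c1, from Cyc1, had a log2 fold change of 0.34 with groups that did not overlap and an edgeR adjusted p of 0.0568, and the Rieske protein, from Uqcrfs1, had 0.10.

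**Figure D4:**
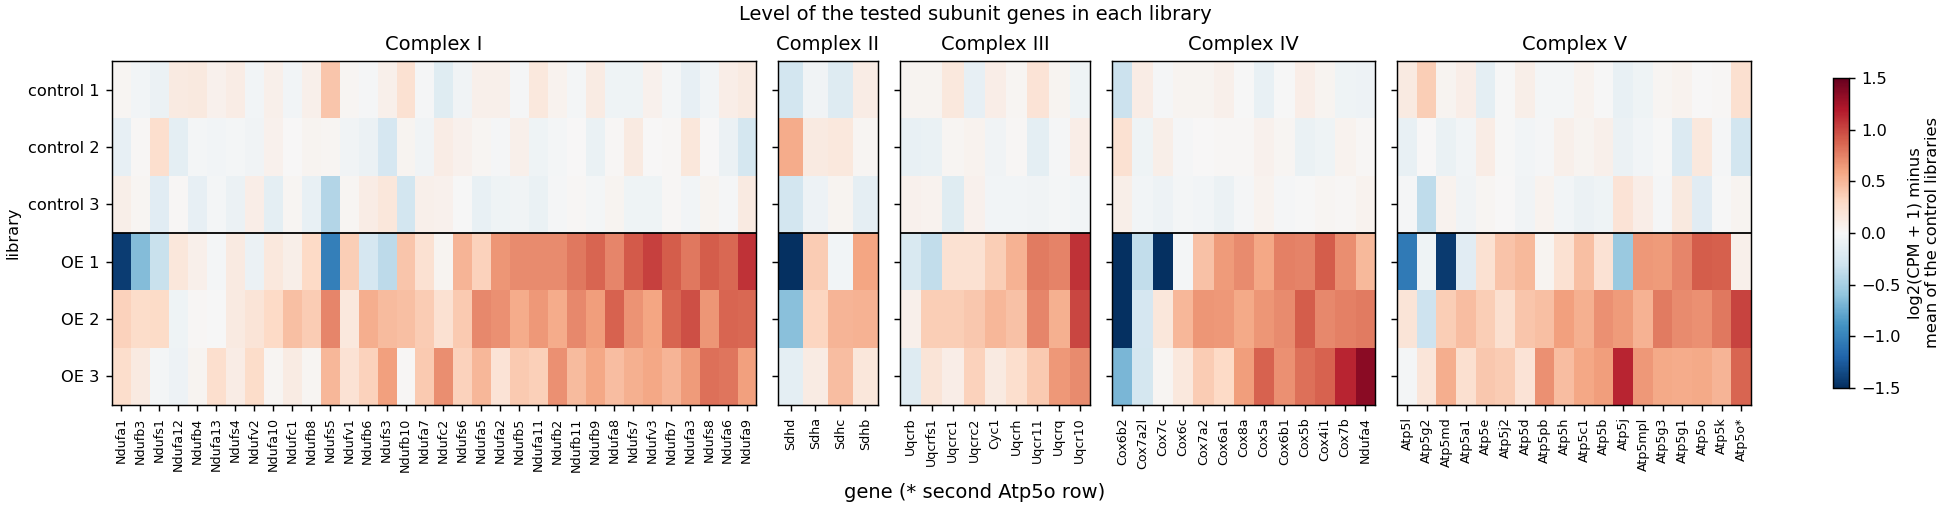
Level of 78 tested members in each of the 6 libraries as log2(CPM + 1) minus the mean of the control libraries, ordered by complex. Rows are libraries and columns are genes, where OE stands for OE-labelled; values past the ends of the colour scale take its end colours. The OE-labelled rows are above control for most genes, and some genes are low in OE-labelled replicate 1 only, such as Atp5md, Cox7c and Ndufa1.

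Complex IV, cytochrome c oxidase, had the highest median log2 fold change of the 5 complexes, 0.64, with 9 of 13 tested members called higher and 1 lower. Its nuclear subunits surround a core encoded in mitochondrial DNA, and several exist as isoforms used in different tissues. Cox4i1, the widely expressed form of subunit IV, stood at 290, 268 and 287 CPM in control and at 530, 466 and 520 CPM in OE-labelled libraries. The groups were far apart, and the log2 fold change was 0.84 ± 0.10 (SE) with an adjusted p of 0.000177 in edgeR. Its locus overlaps Emc8 on the opposite strand and Gm20388 on the same strand. Cox5b, a zinc-binding subunit on the matrix side, stood at 123, 107 and 115 CPM in control and at 192, 216 and 205 CPM in OE-labelled libraries, with no overlap between the groups. Its log2 fold change was 0.83 ± 0.11 (SE) with an adjusted p of 0.000314 in edgeR.

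Cox8a, a small transmembrane subunit, had the highest mean level of complex IV, at 489, 496 and 486 CPM in control and 805, 728 and 758 CPM in OE-labelled libraries. Control libraries were nearly equal, the groups did not overlap, and the log2 fold change was 0.64 ± 0.09 (SE) with an adjusted p of 0.000511 in edgeR. Cox7b, also transmembrane, stood at 125, 135 and 132 CPM in control and at 213, 221 and 289 CPM in OE-labelled libraries. All OE-labelled values were above control, with replicate 3 the highest, and the log2 fold change was 0.88 ± 0.13 (SE) with an adjusted p of 0.000547 in edgeR. Ndufa4 stood at 48.9, 52.1 and 53.4 CPM in control and at 72.5, 89.3 and 133 CPM in OE-labelled libraries. No OE-labelled library fell into the control range, although the OE-labelled libraries spread widely, and the log2 fold change was 0.93 ± 0.19 (SE) with an adjusted p of 0.00386 in edgeR.

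The isoforms Cox6b1 and Cox6b2 of complex IV were called in opposite directions, the second at low counts. Cox6b1, the widely expressed form of subunit VIb, stood at 273, 281 and 271 CPM in control and at 464, 452 and 443 CPM in OE-labelled libraries. All OE-labelled values exceeded all control values, and the log2 fold change was 0.72 ± 0.09 (SE) with an adjusted p of 0.000311 in edgeR. Cox6b2, its testis-type counterpart, was counted 16, 24 and 22 times in control and 4, 3 and 13 times in OE-labelled libraries, or 7.37, 11.3 and 10.1 CPM against 1.62, 1.18 and 5.50 CPM. Every OE-labelled library was below every control library, with OE-labelled replicate 2 at the floor of 3 counts, and the log2 fold change was -1.80 ± 0.45 (SE) with an adjusted p of 0.0103 in edgeR; without control replicate 2 the adjusted p was 0.0540.

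Cox6a1, the form of subunit VIa found outside muscle, stood at 347, 334 and 311 CPM in control and at 515, 521 and 406 CPM in OE-labelled libraries. OE-labelled and control ranges were separate, and the log2 fold change was 0.54 ± 0.12 (SE) with an adjusted p of 0.00453 in edgeR, or 0.24 with an adjusted p of 0.163 with the length offset and 0.23 with an adjusted p of 0.151 with the GC offset. Cox7a2, the form of subunit VIIa found outside muscle, stood at 295, 289 and 278 CPM in control and at 389, 457 and 374 CPM in OE-labelled libraries. Every OE-labelled library exceeded every control library, and the log2 fold change was 0.50 ± 0.11 (SE) with an adjusted p of 0.00450 in edgeR, or 0.20 with an adjusted p of 0.187 with the length offset. Cox7a2l, a relative of Cox7a2 that joins complexes III and IV into supercomplexes, stood at 179, 159 and 161 CPM in control and at 128, 139 and 139 CPM in OE-labelled libraries. It was below control in every OE-labelled library, and its log2 fold change was -0.30 ± 0.11 (SE) with an adjusted p of 0.0534 in edgeR, past the threshold in 7 of 20 alternatives.

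Apart from Cox6b2, the isoforms typical of muscle, lung, testis or low oxygen were counted rarely and were not tested. Cox4i2, Cox7b2, Cox8b and Cox8c had 0 counts in every library, where the floor of 3 counts allows up to 1.18 to 1.41 CPM. The muscle form Cox6a2 had 8, 9 and 6 counts in control and 11, 6 and 6 in OE-labelled libraries, and the muscle form Cox7a1 had 3, 6 and 5 against 9, 6 and 10, so the groups overlapped for both genes. Ndufa4l2, known as a target of low oxygen, had 1 count in 1 control library. The remaining untested members, Ndufa11b, Ndufb4c, Ndufs6b and Cox6c2, are annotated as processed pseudogenes although their symbols do not say so.

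Complex V, the ATP synthase, had 11 of 18 members called higher and 0 lower, with a median log2 fold change of 0.49. EdgeR found 0 lower at an unadjusted p below 0.05, and DESeq2 called 8 higher and 0 lower; edgeR called 7, 7 and 6 higher without control replicates 1, 2 and 3, and 6 with the length offset. In the catalytic head 4 of 5 members rose, with log2 fold changes of 0.33 for Atp5e, 0.37 for Atp5d, 0.52 for Atp5c1 and 0.52 for Atp5b, the catalytic beta subunit (edgeR adjusted p of 0.00332 to 0.0390). DESeq2 called 2 of these, the GC offset left 2 and the length offset left 1; Atp5e was called in 6 of 20 alternatives (0.08 with the length offset, edgeR adjusted p = 0.626) and Atp5d in 10 of 20 (0.14, adjusted p = 0.400). Atp5a1, the alpha subunit, stood at 592, 538 and 536 CPM in control and at 493, 763 and 657 CPM in OE-labelled libraries. OE-labelled replicate 1 was below and replicates 2 and 3 were above all control libraries, and edgeR gave 0.20 with an adjusted p of 0.300.

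The rotating c ring is built from 1 mature protein that 3 genes encode with different import sequences. Atp5g3 had the highest mean level of the complex V members over the 6 libraries together, though not in control, where Atp5a1 had a mean of 555 CPM and Atp5g3 one of 551 CPM. It stood at 562, 547 and 543 CPM in control and 858, 942 and 816 CPM in OE-labelled libraries. The groups were far apart, and the log2 fold change was 0.66 ± 0.10 (SE) with an adjusted p of 0.000493 in edgeR. Atp5g1 stood at 35, 29.1 and 37.3 CPM in control and at 56.3, 55.4 and 49.9 CPM in OE-labelled libraries. The lowest OE-labelled value was above the highest control value, and its log2 fold change of 0.67 ± 0.15 (SE) with an adjusted p of 0.00532 in edgeR was close to that of Atp5g3. Atp5g2 was low, at 6.91, 5.16 and 3.69 CPM in control and 4.86, 3.93 and 5.92 CPM in OE-labelled libraries. Its groups overlapped, and its log2 fold change of -0.10 ± 0.35 (SE) with an adjusted p of 0.851 in edgeR turned to 0.14 without control replicate 1 and to 0.01 without OE-labelled replicate 2.

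The peripheral stalk holds the head against the membrane part, and 2 of its 5 rows, Atp5o and Atp5h, were called higher. Atp5o, the subunit that ties the stalk to the head, stood at 142, 157 and 125 CPM in control and at 265, 228 and 210 CPM in OE-labelled libraries. Control and OE-labelled values were apart, and the log2 fold change was 0.73 ± 0.13 (SE) with an adjusted p of 0.00129 in edgeR. A second row with the same symbol overlaps it on the same strand, lay between 4.22 and 11.8 CPM in all libraries and was not called, and both rows hold fractional counts in the deposited table, so reads between them are uncertain. Among the small membrane subunits 3 of 5 rose: Atp5k, Atp5mpl and Atp5j2. Atp5k, which helps ATP synthases pair into dimers, stood at 137, 134 and 135 CPM in control and at 252, 235 and 192 CPM in OE-labelled libraries. The control libraries were nearly equal, all OE-labelled libraries were above them, and the log2 fold change was 0.74 ± 0.12 (SE) with an adjusted p of 0.000868 in edgeR. Atp5mpl stood at 132, 134 and 148 CPM in control and at 218, 198 and 217 CPM in OE-labelled libraries, with no overlap between the groups. Its log2 fold change was 0.61 ± 0.11 (SE) with an adjusted p of 0.00139 in edgeR.

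The OE-labelled libraries differed among themselves more than the control libraries did. The members had a median coefficient of variation of 6.10% among control and 12.7% among OE-labelled libraries, larger in the latter for 66 of 79 members; over all genes it was 10.5% and 15.9%, and larger in the latter for 7177 of 10687. A set of 11 members (13.9%, against 3.06% of all genes) had OE-labelled replicate 1 below and replicates 2 and 3 above all control libraries, a pattern picked out after the values were seen. These were Ndufa1, Ndufb3, Ndufb6, Ndufs3, Ndufs5, Ndufv2, Uqcrfs1, Cox6c, Atp5a1, Atp5j and Atp5md, which fall in complexes I, III, IV and V. Atp5md, a small membrane subunit of the ATP synthase, stood at 253, 230 and 256 CPM in control and at 90.3, 319 and 360 CPM in OE-labelled libraries. Ndufa1, a membrane subunit of complex I, stood at 65.9, 59.6 and 69.1 CPM in control and at 23.5, 82.6 and 77.8 CPM in OE-labelled libraries. In both, replicate 1 was far below every other library. Cox7c, outside the 11, stood at 444, 481 and 429 CPM in control and at 152, 506 and 460 CPM in OE-labelled libraries, where again only replicate 1 was low. Ndufb1-ps, left out for its pseudogene symbol, had 171, 157 and 166 counts in control and 96, 227 and 250 in OE-labelled libraries, with the same library low.

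None of the 11 was called with all libraries by edgeR, and 6 were called higher without OE-labelled replicate 1: Ndufb6, Ndufs3, Cox6c, Atp5a1, Atp5j and Atp5md. The 11 were picked because that library lay below, and the other OE-labelled libraries above, all control libraries. Their calls with and without it follow largely from this choice and are not a test of the pattern. With OE-labelled replicate 1 left out, 52 members were called higher (65.8%, against 14.8% of all genes). A further 2 were called lower (Cox6b2 and Cox7a2l, against 15.9%), and 42 of the 52 were among the 44. The median log2 fold change was then 0.43, against 0.01 for all genes, and complex V had 15 of 18 called higher. Over the 79 members, the deviation of replicate 1 from the mean of the other OE-labelled libraries was related to GC content (Pearson r = 0.42, Spearman rho = 0.54), more than over the 10679 tested genes with annotation (r = 0.14, rho = 0.18). These are descriptions across genes that share the same libraries, and the part of GC content in the pattern was not tested.

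**Figure D5:**
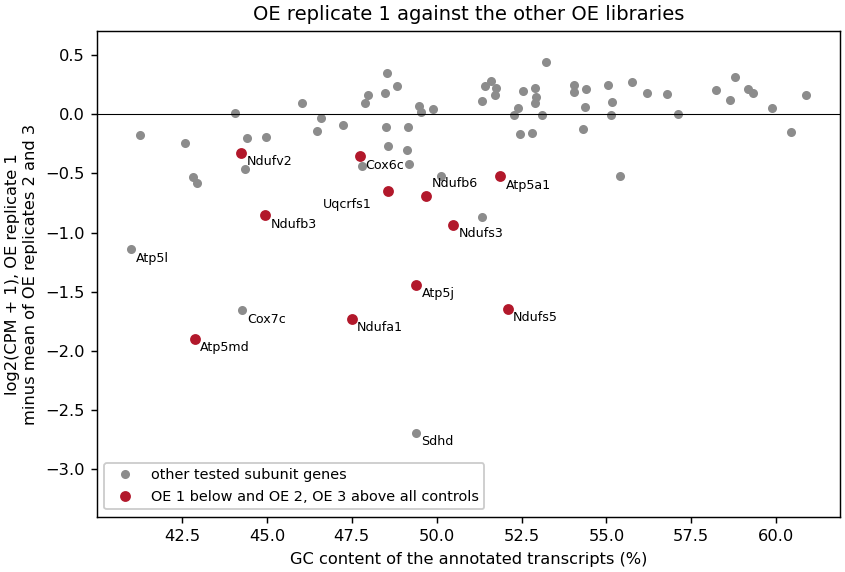
Deviation of OE-labelled replicate 1 from the mean of OE-labelled replicates 2 and 3, as log2(CPM + 1), against the GC content (%) of the annotated transcripts for 78 tested members. The 11 members in red lie below 0, from -1.90 for Atp5md to -0.32 for Ndufv2, and other members in grey, such as Sdhd, Cox7c and Atp5l, lie as far below it.

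The assembly factors build the complexes without being part of them, and their calls are given by complex. Of the complex I assembly factors, 0 of 16 tested were called by edgeR, 1 at an unadjusted p below 0.05 and 0 by DESeq2 or limma-voom, and their median log2 fold change was 0.13. For complex II 1 of 4 was called higher, Sdhaf1 (1.03, edgeR adjusted p = 0.00275), which helps insert iron-sulfur clusters into Sdhb. For complex III 1 of 5 was called higher, Uqcc2 (0.65, edgeR adjusted p = 0.00327). For complex IV 5 of 24 were called higher and 1 lower, among them Higd2a (0.79, edgeR adjusted p = 0.000693) and Coa3 (0.60, edgeR adjusted p = 0.00519), while Coa6, which helps deliver copper, fell (-1.22, edgeR adjusted p = 0.0130). For complex V 1 of 3 was called higher, Fmc1 (0.64, edgeR adjusted p = 0.0400), and DESeq2 and limma-voom called 0 of the 3. With the length offset the calls of Uqcc2 (0.35), Coa3 (0.30) and Fmc1 (0.34) were lost (edgeR adjusted p of 0.0695 to 0.269). Those of Sdhaf1, Higd2a and Coa6 held (edgeR adjusted p of 0.00494 to 0.0174). Of the complex IV factors called higher, only Higd2a stayed called with that offset, and DESeq2 called 3 factors of the complex IV list. Over all genes tested, 16.5% were called higher and 12.7% lower.

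Of 4 tested genes tied to the chain but outside the symbol rule, 2 were called higher, against 16.5% of all genes. Cycs (0.12, edgeR adjusted p = 0.756) and Lrpprc (0.26, edgeR adjusted p = 0.266) were not called. Atpif1, the inhibitor that stops the ATP synthase from running backwards, stood at 489, 489 and 492 CPM in control and at 1108, 1172 and 896 CPM in OE-labelled libraries. Its groups were far apart, and the log2 fold change of 1.11 ± 0.11 (SE) with an adjusted p of 6.2e-05 in edgeR exceeded those of all 44 subunits called higher. Ndufab1, the acyl carrier protein that Ndufa6 holds, rose by 0.61 on the log2 scale (edgeR adjusted p = 0.00666). Of 12 nuclear regulators of the chain, 2 were called higher, the mitochondrial RNA polymerase Polrmt (0.86, edgeR adjusted p = 0.0214) and the coactivator Ppargc1a (0.84, edgeR adjusted p = 0.0295), called in 14 and 13 of the 20 alternatives respectively; limma-voom called 2 and DESeq2 0, and the median of the list was -0.19. That count is near the background share of 16.5% called higher. Of the factors whose promoter letters were searched, none passed the test: Nrf1 had a log2 fold change of 0.40 (edgeR adjusted p = 0.213), Gabpa had -0.67 (edgeR adjusted p = 0.0521, called in 6 of 20 alternatives) and Yy1 had -0.33 (edgeR adjusted p = 0.0554, called in 9 of 20). The groups overlapped for Nrf1, and every OE-labelled library was below every control library for Gabpa and Yy1.

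The subunits encoded in mitochondrial DNA did not move in 1 direction. Of 13, 8 were tested, and mt-Co2, mt-Co3, mt-Atp6, mt-Atp8 and mt-Nd4l were listed at 0 in every library. The complex III subunit mt-Cytb was called higher (0.66, edgeR adjusted p = 0.00412). The complex IV subunit mt-Co1 (-0.77, edgeR adjusted p = 0.000144) and the complex I subunit mt-Nd5 (-0.57, edgeR adjusted p = 0.00100) were called lower. Over all genes tested, 29.2% were called, 16.5% higher and 12.7% lower. The call of mt-Cytb was lost with the length offset (0.37, edgeR adjusted p = 0.0630), and that of mt-Nd5 held in 17 of 19 alternatives. For mt-Co1 the libraries stood at 1705, 1797 and 1809 CPM in control and at 1088, 1004 and 1030 CPM in OE-labelled libraries. The groups did not overlap. Of the 13 tested nuclear-encoded members of complex IV, 9 were called higher in the same libraries, Cox4i1 and Cox5b among them. Another 1 was called lower and 3 were not called.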

How the data were processed

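The 6 libraries, 3 per group, were sequenced at the 3′ ends of mRNA. Groups and replicate numbers came from the sample titles, and columns were matched by the library names that the descriptions hold. The values deposited by the authors are unnormalized estimated counts for each gene; STAR, HTSeq and the builds mm10 and GRCm38 are named in the submitters' processing notes. The annotation, strand setting, molecular identifiers and multi-mapping reads are not given in the sources used here. Of the values above 0, 3.09% were fractional, and all values were rounded to whole numbers, although whole counts had been assumed when the test was planned. No column of values was left out.

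The main test was edgeR 4.0.16 (R 4.3.3): filterByExpr, TMM scaling, the quasi-likelihood test without covariates, and Benjamini-Hochberg adjustment over 10687 genes, with a threshold of 0.05. CPM is the count over the TMM-scaled library size. Standard errors are the log2 fold change divided by the square root of the F statistic. Gene type, length, GC content and overlaps came from GENCODE M21 (GRCm38), which held all 90 members. Offsets for length and GC content were loess curves (span 0.5). Alternatives were DESeq2 1.42.0, its size factors, limma-voom (limma 3.58.1), library totals, other filters, leaving out mitochondrial genes, equal depth, the offsets, a replicate block, each library left out and a threshold of 0.01; unrounded counts and protein-coding genes only were added after seeing the data. The scripts were tested on simulated data. Floors of 3 counts cover counting error only, since reads are not known to be independent molecules.

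Members with values in every library were the 4 called with the smallest p per complex, those called against the majority of their complex, Sdha to Sdhd, the member with the highest mean CPM per complex, and the isoform families; from other lists, up to 3 called genes. Other genes given with values, such as Ndufv1, Gabpa, Yy1, Atp5a1, Atp5md, Ndufa1 and Cox7c, were picked with their values in view. One member that this rule selects is not reported here, and figures that label genes leave it out; counts, sums and medians include it. The members and lists were chosen with earlier results of these data known.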

Additional observations from a re-analysis of the deposited data

How the results depend on the processing

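Over 20 alternatives, 27 of the 44 members called higher were called in each, and none of the 44 changed sign. Against 3118 genes called, DESeq2 called 1972 and a threshold of 0.01 left 1578; leaving out each library gave 1748 to 3532, with 1893, 1837 and 1748 without control replicates 1, 2 and 3. Members called higher numbered 28 with the length offset, 38 by DESeq2 (background 9.7%), and 32 (without control replicate 3) to 52 (without OE-labelled replicate 1) with a library left out. Members called lower, 1 in the main test, were 2 with DESeq2 size factors, with no filter, without mitochondrial genes and with protein-coding genes only. They were 3 with the length offset and 0 to 3 with a library left out. At 0.01 there were 0, while at 0.05 edgeR had 2 lower by unadjusted p in the main fit and DESeq2 had 1 by adjusted p. The median log2 fold change of the members was 0.20 with the length offset and 0.37 to 0.45 with a library left out. Atp5g2, -0.10 in the main test, ranged from -0.30 to 0.14 with a library left out, and was above 0 without control replicate 1 (0.14) and OE-labelled replicate 2 (0.01). Of 459 values for the 23 named members called, 436 stayed past the threshold and 23 did not, all in the same direction. Counts near the floor limit Sdhd, Cox6b2, Ndufs5 and Atp5g2, with SEs of 0.35 to 0.54 on the log2 scale.

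Same-numbered libraries had correlations of their deviations from the group means of 0.097, 0.018 and 0.069, and control replicate 2 was closest to OE-labelled replicate 3, so the numbers were not taken as pairs. A fit with replicate number as a block gave 3112 called genes and 45 members called higher, including all 44, and the median was 0.42.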
